A study of Mus musculus with 9 samples.

Results

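The 4 Hox clusters of the mouse genome were described from the open chromatin of the embryonic cochlear duct, the part of the inner ear that forms the organ of hearing. A peak was counted as a Hox peak when its summit lay nearest, within 100 kb, to a transcription start site (TSS) of a protein-coding transcript of 1 of 38 listed Hox genes. By this rule 134 of the 286921 deposited peaks were Hox peaks, and merging peaks less than 100 bp apart gave 39 Hox regions among 69354 regions. At least 1 peak was nearest to 26 of the 38 genes, and none was nearest to the other 12 (Hoxa2, Hoxa5, Hoxa6, Hoxa9, Hoxa11, Hoxb3, Hoxb5, Hoxc6, Hoxc9, Hoxc10, Hoxc11 and Hoxd4). The annotated spans of the listed genes (build mm9) ran over 98.5 kb of chromosome 6 for Hoxa (chr6:52112350-52210874, 10 genes, 8 regions), 173.9 kb of chromosome 11 for Hoxb (chr11:96055630-96229570, 10 genes, 12 regions), 115.7 kb of chromosome 15 for Hoxc (chr15:102751534-102867274, 9 genes, 8 regions) and 96.8 kb of chromosome 2 for Hoxd (chr2:74506367-74603200, 9 genes, 11 regions).

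ATAC-seq, in which a transposase cuts and tags accessible DNA, had been performed on cells sorted by fluorescence from dissociated cochlear ducts. All embryos carried 1 Sox2-EGFP knock-in allele (strain B6;129S-Sox2tm2Hoch/J), in which EGFP takes the place of the Sox2 coding sequence, so every sample has 1 working copy of Sox2. Sox2-EGFP+ cells had the highest EGFP signal and hold the prosensory progenitors of hair cells and supporting cells, and Sox2-EGFP- cells had the lowest signal and hold the surrounding cells of the duct and of the dissected tissue, while cells of intermediate signal were left out. There were 2 Sox2-EGFP+ samples at each of embryonic days E12, E14.5 and E16, 1 Sox2-EGFP- sample at E14.5 (replicate 2) and 2 at E16, each sample from the pooled ducts of 1 litter. No Sox2-EGFP- sample at E12 was analysed here, so E12 enters only as Sox2-EGFP+ cells. The sorted samples are mixtures of cells, and fewer cells of a type and less accessibility per cell cannot be told apart.

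Hox genes code for homeodomain transcription factors that give cells their position along the head-to-tail axis. Within a cluster the genes are transcribed in 1 direction and are switched on in order: genes at the 3′ end (low paralog numbers) are used early and reach into the hindbrain, and genes at the 5′ end (high numbers) are used later and in the trunk, tail, limb buds and genital tubercle. Where they are silent, the clusters are covered by Polycomb proteins. The ear forms beside the hindbrain, at a level where only genes of the 3′ ends are used in the neural tube and in the neural crest that streams into the head mesenchyme.

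Several features of the lists bear on every count below. The lists held between 7577 peaks (E12 replicate 2) and 66332 peaks (E14.5 Sox2-EGFP+ replicate 1), and their sequencing depth cannot be read from them. The authors had kept only peaks with a partner in another sample of the same cell type, and in the files 0 of 69354 regions had a peak in exactly 1 sample of a cell type. The missing peak of a gene is therefore described as no peak, which is not a measurement of closed chromatin. The separate cell type tag contradicts the title in 3 E16 samples (Sox2-EGFP+ replicate 2 and both Sox2-EGFP- replicates), and samples were grouped by title. With that grouping, 5 of 5 epithelial marker genes (Epcam, Cdh1, Grhl2, Esrp1 and Cldn6) had a promoter peak in Sox2-EGFP+ samples alone, against 7.57% of all genes. Cdh1 had 1 in 6 of 6 Sox2-EGFP+ and 0 of 3 Sox2-EGFP- samples, and Cldn6 in 1 sample (E14.5 Sox2-EGFP+ replicate 1, 2.29). At 10 of 10 prosensory marker genes both cell types had promoter peaks (56.3% of all genes), so these promoters do not separate the groups. Both E16 samples numbered replicate 1 carry the name of another library series in the labels than the other 7 samples, of which E12 replicate 2 has a series number of its own.

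The regions on which the results turn are printed first, from the mm9 reference (NCBIM37) on its plus strand, 5′ to 3′. The first set is 120 bases around the summits of 3 of the 5 Hox regions that match the binding sequence of CTCF, the protein that sets the borders of chromatin loops and is known to bind between Hox genes. Capitals mark the match, to HOMER's 20-letter CTCF consensus with at most 5 mismatches or to its core of CCANN followed at once by AGNNGGC. They lie at chr2:74553955-74554074 in an intron of Hoxd3, at chr11:96140231-96140350 between Hoxb9 and Hoxb8, and at chr15:102817981-102818100 upstream of Hoxc8 in an intron of the non-coding transcript Gm20398.
Hoxd3 +4.03 kb: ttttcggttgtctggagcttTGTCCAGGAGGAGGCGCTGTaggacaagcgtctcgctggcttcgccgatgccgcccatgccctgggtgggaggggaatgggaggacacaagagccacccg
Hoxb8 -2.93 kb: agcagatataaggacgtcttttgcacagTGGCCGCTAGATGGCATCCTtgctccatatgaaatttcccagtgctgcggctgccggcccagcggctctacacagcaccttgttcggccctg
Hoxc8 -3.01 kb: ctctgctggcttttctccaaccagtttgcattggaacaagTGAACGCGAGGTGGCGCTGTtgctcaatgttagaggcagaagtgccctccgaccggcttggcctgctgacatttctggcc

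The name of a region gives its nearest gene and the distance of its most significant summit in any sample from that gene's TSS. Distances count as positive in the direction of transcription. In Hoxd3 +4.03 kb the core lies inside the consensus match, and no other motif searched overlaps another in the Hox regions. The next pair holds the sequence TGATNNAT, bound by HOX proteins together with their partner PBX, and in Hoxc4 +34.99 kb also TGACAG, bound by MEIS proteins, both in capitals. They lie at chr15:102899752-102899871, in the intergenic DNA past the 3′ end of Hoxc, and at chr6:52141990-52142109, just upstream of Hoxa4 in a Hoxa3 intron.
Hoxc4 +34.99 kb: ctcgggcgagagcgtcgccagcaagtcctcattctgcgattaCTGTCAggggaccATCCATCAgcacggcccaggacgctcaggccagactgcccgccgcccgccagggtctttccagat
Hoxa4 -0.30 kb: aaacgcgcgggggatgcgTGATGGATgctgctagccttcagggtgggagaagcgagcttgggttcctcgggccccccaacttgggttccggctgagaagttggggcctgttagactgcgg

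The last set is 300 bases around the summit of regions that differed between the cell types. Hoxb1 +42.17 kb (chr11:96269082-96269381) and Hoxd3 +7.19 kb (chr2:74590769-74591068) are 2 of the 3 regions with a peak in at least 4 Sox2-EGFP+ and no Sox2-EGFP- sample. Hoxc4 +52.98 kb (chr15:102917654-102917953) had a peak in each of the 3 Sox2-EGFP- and in none of the Sox2-EGFP+ samples. All 3 are outside protein-coding exons. Capitals mark CATTGTT, the sequence bound by SOX proteins, where present.
Hoxb1 +42.17 kb: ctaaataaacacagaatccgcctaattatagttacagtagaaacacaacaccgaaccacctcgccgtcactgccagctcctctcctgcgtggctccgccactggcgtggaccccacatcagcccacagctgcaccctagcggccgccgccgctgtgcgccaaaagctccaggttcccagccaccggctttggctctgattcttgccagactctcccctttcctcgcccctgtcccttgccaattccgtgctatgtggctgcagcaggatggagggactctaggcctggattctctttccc
Hoxd3 +7.19 kb: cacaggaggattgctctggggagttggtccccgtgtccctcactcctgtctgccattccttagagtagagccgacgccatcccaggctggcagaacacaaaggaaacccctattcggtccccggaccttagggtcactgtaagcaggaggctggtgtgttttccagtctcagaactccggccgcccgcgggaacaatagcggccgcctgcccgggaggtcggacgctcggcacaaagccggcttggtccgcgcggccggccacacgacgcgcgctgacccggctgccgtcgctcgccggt
Hoxc4 +52.98 kb: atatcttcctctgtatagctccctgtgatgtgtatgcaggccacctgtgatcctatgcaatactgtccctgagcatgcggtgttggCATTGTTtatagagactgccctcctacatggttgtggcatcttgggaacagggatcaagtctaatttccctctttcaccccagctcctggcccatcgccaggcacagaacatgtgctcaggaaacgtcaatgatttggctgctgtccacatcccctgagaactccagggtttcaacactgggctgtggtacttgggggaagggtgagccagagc

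Hox peaks made up a small part of every list. The E12 Sox2-EGFP+ replicates held 2 and 1 Hox peaks, the E14.5 Sox2-EGFP+ replicates 36 and 7, and the E16 Sox2-EGFP+ replicates 29 and 29. The Sox2-EGFP- samples held 10 Hox peaks at E14.5 and 11 and 9 at E16. As a share of its list, this came to between 0.0132% (E12 replicate 2) and 0.0738% (E16 Sox2-EGFP+ replicate 1), and the Sox2-EGFP- values of 0.0429%, 0.0461% and 0.0377% lay within the range of the Sox2-EGFP+ values. The 3 samples with the most Hox peaks were the 3 with the longest lists. Per Mb, the spans held more peaks than the genome in the 7 samples of E14.5 and E16, from 59.8 against 25.0 in E14.5 Sox2-EGFP+ replicate 1 to 10.3 against 8.65 in replicate 2, and 16.5, 16.5 and 12.4 against 8.78, 8.98 and 9 in the Sox2-EGFP- samples. The E12 replicates held fewer, 2.06 against 5.20 and 2.06 against 2.85.

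Hox peaks were also weak by the standard of their own lists. The fold enrichment of a peak is its pileup over the local background that MACS2 estimated in the same sample. The median fold enrichment of the Hox peaks was below that of the whole list in 9 of 9 samples, for example 6.58 against 7.75 in E14.5 Sox2-EGFP+ replicate 1 and 4.65 against 6.51 in E16 Sox2-EGFP- replicate 1. When each list was ranked by its −log10 p, the median Hox peak stood between 68.1% (E14.5 Sox2-EGFP+ replicate 1) and 91.5% (E12 replicate 1) of the way down. The highest Hox peak of any sample by this measure stood 17.8% of the way down, again in E14.5 Sox2-EGFP+ replicate 1.

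**Figure D1:**
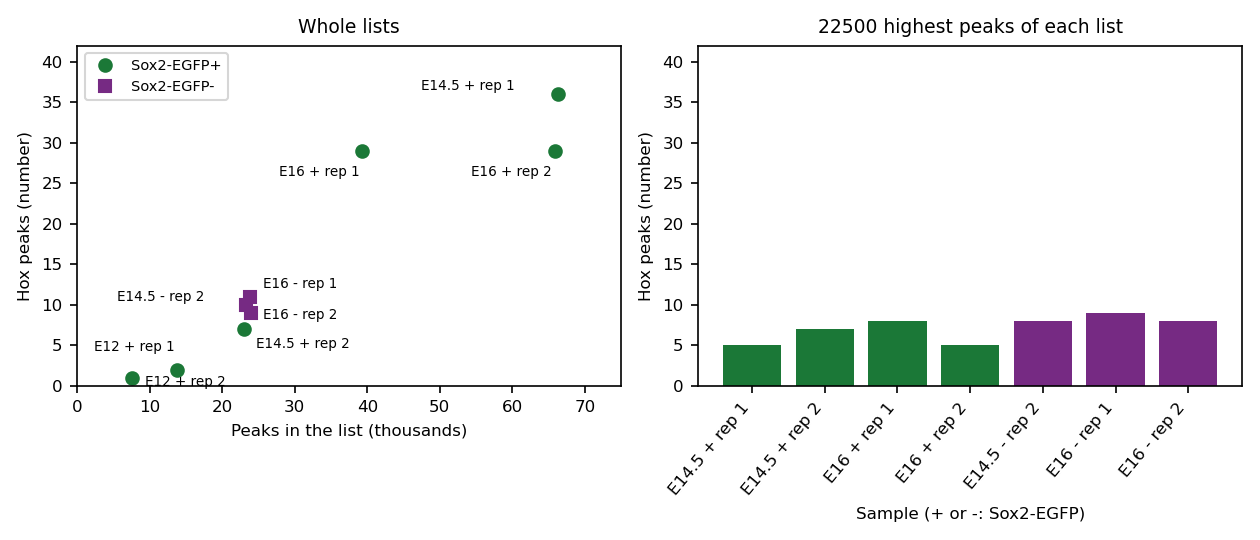
Left, the number of Hox peaks of each sample (vertical axis) against the number of peaks in its list (horizontal axis, in units of 1000 peaks), with circles for Sox2-EGFP+ and squares for Sox2-EGFP- samples. Right, bars with the number of Hox peaks among the 22500 highest peaks of each E14.5 and E16 list; the Sox2-EGFP+ bars stand at 5, 7, 8 and 5 and the Sox2-EGFP- bars at 8, 9 and 8.

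Because list length differed so much, samples were compared over lists of equal length. Among the 7500 highest peaks of each list there was a single Hox peak in all 9 samples, at the Hoxd1 promoter in E12 replicate 2, where it ranked 6150 of 7577. The Hox share was then 0.01333% in that sample and 0 in the other 8, and the two-sided exact permutation test of cell type gave p = 1 for each of 10 measures (6 against 3 samples, smallest possible p = 0.0119). Lists this short hold almost no Hox peak, so this comparison says nothing on whether the cell types differ at the clusters. E12 against the later Sox2-EGFP+ samples gave an exact permutation p of 0.333 for the share, in a design whose smallest possible p is 0.0667.

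Longer equal lists of 22500 peaks, a length chosen after the data were seen, could be cut from the 7 lists of E14.5 and E16. In these the Sox2-EGFP+ samples held 5, 7, 8 and 5 Hox peaks and the Sox2-EGFP- samples 8, 9 and 8. The groups overlapped at 8 peaks, and the Hox share was 0.0278% ± 0.0067 (SD, n = 4) in Sox2-EGFP+ and 0.0370% ± 0.0026 (SD, n = 3) in Sox2-EGFP- samples, with a two-sided exact permutation p of 0.114 (0.381 after Benjamini-Hochberg adjustment over 10 measures). The larger number of Hox peaks in the full Sox2-EGFP+ lists was thus not seen at this equal length. The part of the Hoxb span under a peak was 0.205% ± 0.055 (SD, n = 4) in Sox2-EGFP+ against 0.077% ± 0.067 (SD, n = 3) in Sox2-EGFP- samples. This had the smallest p that the exact permutation test could give (0.0286), which after adjustment was 0.286 and did not pass the threshold of 0.05.

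Each of the 4 clusters was made of short peaks separated by long stretches without any. Over all 9 lists, peaks covered 3.33% of the Hoxa span, 2.50% of Hoxb, 2.05% of Hoxc and 7.20% of Hoxd. The longest stretch without a peak in any list was 43.9 kb in Hoxc (chr15:102774010-102817877), which holds every start site of Hoxc9, Hoxc10 and Hoxc11, genes of the trunk. In Hoxb it was 33.8 kb (chr11:96180371-96214219) with the starts of Hoxb2, which patterns the motor neurons of the face, and Hoxb3. In Hoxd it was 33.6 kb (chr2:74554240-74587868) with the start of Hoxd4, and in Hoxa 19.1 kb (chr6:52190726-52209869) with the starts of Hoxa11, a gene of the forearm and uterus. Stretches without a peak thus lay near the 3′ end in Hoxb, toward it in Hoxd, near the 5′ end in Hoxa and in the middle of Hoxc.

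In the 3 Sox2-EGFP- lists together these stretches were longer. They held 0 peaks in the whole Hoxc span, and none over 117 kb of Hoxb from the 5′ edge of the span, with the starts of Hoxb5 to Hoxb9 and Hoxb13. No Sox2-EGFP- peak lay in the 59.3 kb of Hoxa from its 3′ edge to Hoxa7, which holds the starts of Hoxa2 to Hoxa6. In Hoxd the longest Sox2-EGFP- stretch was 46.5 kb, from Hoxd3 +4.03 kb to the Hoxd1 promoter. These 3 lists held between 23302 and 23899 peaks. The Sox2-EGFP+ list nearest to them in length (E14.5 replicate 2, 22962 peaks) likewise had no peak in the Hoxa and Hoxc spans. It also had none over 117 kb of Hoxb.

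**Figure D2:**
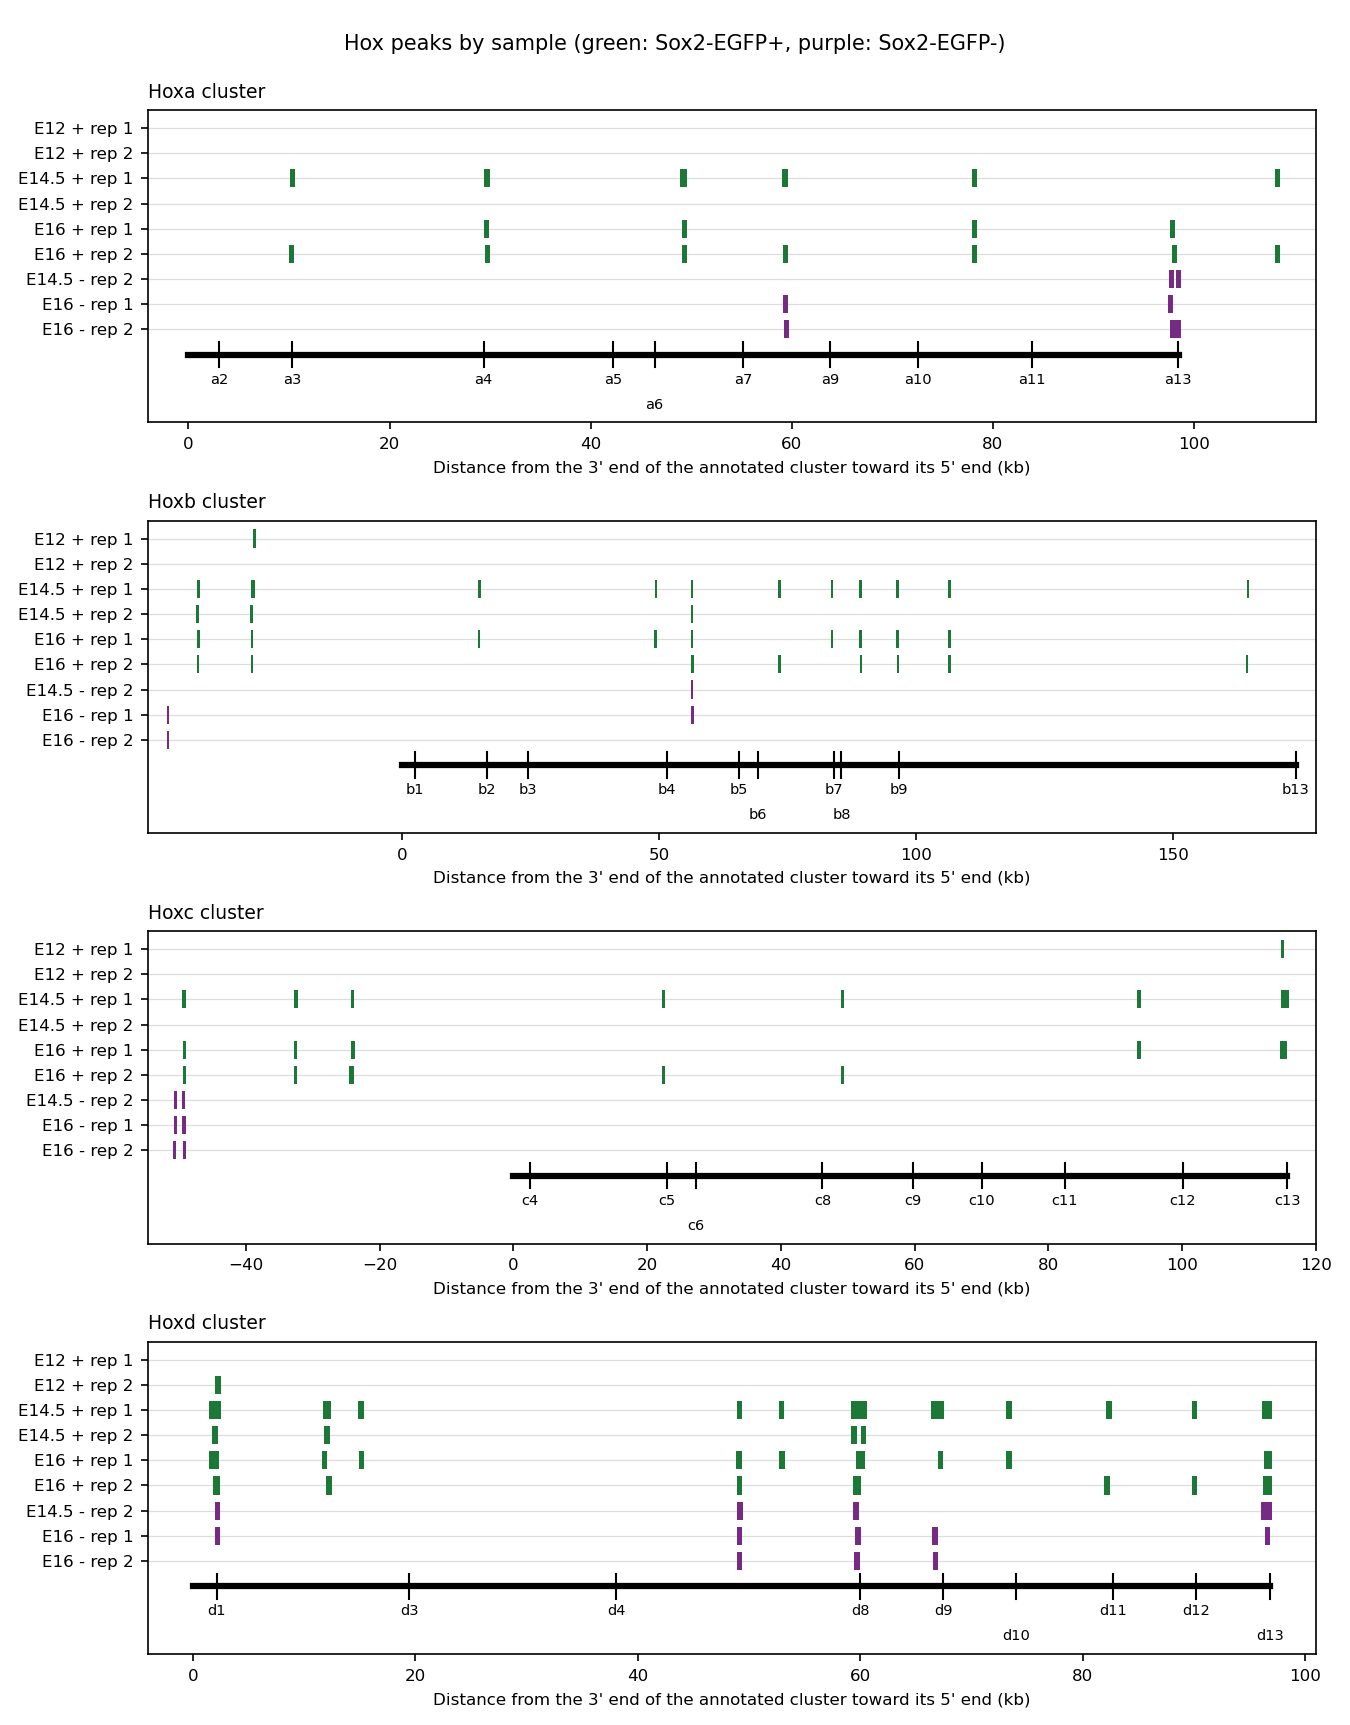
Hox peaks of each sample (1 line per sample, Sox2-EGFP+ in green, Sox2-EGFP- in purple, each box drawn at least 0.5 kb wide) against the distance in kb from the 3′ end of the annotated cluster toward its 5′ end. Ticks on the black bar mark the most 3′ protein-coding start of each listed gene. No purple box lies over the Hoxc bar, and neither does a box of E14.5 Sox2-EGFP+ replicate 2. The Hoxd1 and Hoxd8 peaks recur in the most lines, 7 each.

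Of the 39 Hox regions, 27 (69.2%) had peaks in Sox2-EGFP+ samples alone, where the share over the 57618 regions within 100 kb of a protein-coding start was 62.4%. Peaks of both cell types were found in 9 Hox regions (23.1%, against 32.7% of all regions), and of Sox2-EGFP- samples alone in 3 (7.69% against 4.94%). None of the 39 had a peak in all 9 samples, against 8.69% of all regions. A peak in at least 4 Sox2-EGFP+ samples and no Sox2-EGFP- sample was found in 3 Hox regions (7.69% against 8.23%), a peak in each of the 3 Sox2-EGFP- samples and no other in 1 (2.56% against 2%), and a peak in either E12 sample in 3 (7.69% against 22.5%). The shares by cell type were close to those of all regions, and 23 of the 39 regions (59.0%, against 51.1% of all regions) had peaks only in the 3 longest lists, which are all Sox2-EGFP+. Without the 3 samples of contradictory label 29 of 38 regions had Sox2-EGFP+ peaks alone and 2 had Sox2-EGFP- peaks alone. With the cell type tag in place of the title these counts were 10 and 0 of 39. The shares over all regions were not counted under these groupings, so these changes cannot be read as particular to Hox regions.

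By cluster, these counts were small and not tested against each other. In Hoxd 5 of 11 regions had peaks of both cell types, against 2 of 8 in Hoxa, 1 of 12 in Hoxb and 1 of 8 in Hoxc. The 3 regions with Sox2-EGFP- peaks alone lay in or beside Hoxa, Hoxb and Hoxc. Inside the spans were 30 regions, and the other 9 lay outside, with 4 of them past the 3′ end of Hoxc and 3 past the 3′ end of Hoxb. Within the same stage and number, the E16 replicates 1 shared 8 regions (29.6% of the 27 Sox2-EGFP+ and 72.7% of the 11 Sox2-EGFP- regions). The E16 replicates 2 shared 5 (18.5% of 27 and 55.6% of 9). Sharing was counted by region, and at Hoxd9 +0.07 kb the peaks of the E16 replicates 1 did not overlap. Replicates of 1 cell type shared 18 regions at E16 in Sox2-EGFP+ (66.7% of each) and 8 in Sox2-EGFP- (72.7% and 88.9%), and the authors' filter on partners within a cell type raises this sharing by construction.

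The Hoxd cluster had the regions found in most samples. Hoxd1, whose product helps to pattern pain-sensing neurons in mice, is the gene at the 3′ end of this cluster, and its promoter had a peak in 7 samples. Its fold enrichment was 4.95 in E12 replicate 2, 12.1 and 4.27 in the E14.5 and 7.42 and 7.54 in the E16 Sox2-EGFP+ replicates, and 3.77 and 6.69 in the E14.5 and first E16 Sox2-EGFP- samples. Only E12 replicate 1 and E16 Sox2-EGFP- replicate 2 had none.
At Hoxd8, a gene of the trunk, a merged region of 1253 bp had a peak in all 7 samples of E14.5 and E16. Neither E12 sample had a peak there. The most significant summit of the region lay 0.34 kb downstream of a start. The highest fold enrichments in the region were 4.54, 3.64, 3.75 and 4.79 in the Sox2-EGFP+ samples, in the order E14.5 to E16. In the Sox2-EGFP- samples they were 5.18, 4.54 and 4.49 in the same order, so that the cell types overlapped. The 3.64 of E14.5 Sox2-EGFP+ replicate 2 came from a peak whose summit lay upstream of a start and which overlapped no Sox2-EGFP- peak.
Hoxd3 +4.03 kb, in an intron of a gene needed for the vertebrae that carry the skull and over an exon of the antisense transcript 1700109F18Rik, held the CTCF match shown above. It had a fold enrichment of 11.4 in E14.5 Sox2-EGFP+ replicate 1, of 6.43 and 7.19 in the E16 Sox2-EGFP+ and of 4.17, 6.05 and 6.14 in the Sox2-EGFP- samples, and no peak in E14.5 Sox2-EGFP+ replicate 2 or at E12. Of the Hoxd regions it had the highest mean rank, at 45.0% of the way down the lists.

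The 5′ portion of Hoxd had peaks at most gene starts. Hoxd13, which shapes digits and the genital tubercle, had a promoter peak in 3 Sox2-EGFP+ samples (5.86 at E14.5, 5.10 and 4.26 at E16) and in 2 Sox2-EGFP- samples (3.24 at E14.5 and 3.74 at E16). Hoxd12, another limb gene, had a promoter peak of 3.85 in E14.5 Sox2-EGFP+ replicate 1 and 3.37 in E16 Sox2-EGFP+ replicate 2 and in no other list. Hoxd9 +0.07 kb was found in E14.5 replicate 1 and E16 replicate 1 of Sox2-EGFP+ (6.06 and 4.30). It was also found in both E16 Sox2-EGFP- samples (4.09 and 4.66), although in the latter the peaks lay outside the promoter window. The E16 Sox2-EGFP+ peak overlapped neither E16 Sox2-EGFP- peak, and the E14.5 replicate 1 peak of 1139 bp joined them. Hoxd10 +0.66 kb (8.11 and 5.31) and Hoxd11 +0.33 kb (3.77 and 3.44) each had a peak in 2 Sox2-EGFP+ samples. Toward the 3′ end, Hoxd3 +7.19 kb was the Hoxd region with peaks in 4 Sox2-EGFP+ samples alone. Its values were 6.30 and 3.64 at E14.5 and 3.74 and 4.14 at E16. These peaks were joined by the E14.5 replicate 1 peak of 716 bp. The E16 replicate 1 peak did not overlap the peaks of E14.5 replicate 2 and of E16 replicate 2. It also lay outside the sequence shown above.

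Past the 3′ end of the cluster, downstream of Hoxb1, the gene that defines rhombomere 4 of the hindbrain, lay a group of 3 intergenic regions. Hoxb1 +31.22 kb had a peak in 5 Sox2-EGFP+ samples (4.46 in E12 replicate 1, 8.70 and 4.39 at E14.5, 3.98 and 4 at E16) and in no Sox2-EGFP- sample. These peaks lay at 2 places joined by the E14.5 replicate 1 peak of 871 bp, since the E12 peak did not overlap the peaks of E14.5 replicate 2 and of both E16 samples.
Hoxb1 +42.17 kb had a peak in the 4 Sox2-EGFP+ samples of E14.5 and E16 (11.3, 4.27, 5.90 and 7.82) and again in no Sox2-EGFP- sample. Its mean rank over these 4 samples, 38.3% of the way down, was the best of the 39 Hox regions, each averaged over its own samples.
Hoxb1 +48.06 kb, a further 5.89 kb away, had the opposite pattern, with peaks in both E16 Sox2-EGFP- samples (6.90 and 5.85) and no other list. Between E16 and the other stages this region cannot be compared, as the E14.5 Sox2-EGFP- group has 1 sample. These 3 regions were assigned to Hoxb1 by distance alone, and the gene Skap1 is the next nearest to the last of them.

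Promoters of Hoxb genes had peaks in few samples. Hoxb9, a gene of the rib-bearing trunk, had a promoter peak in E16 Sox2-EGFP+ replicate 2 alone (4.35), and a region 0.30 kb into the gene in 3 Sox2-EGFP+ samples. Hoxb2 +1.65 kb (4.81 and 4.37), Hoxb4 +2.26 kb (3.73 and 3.93) and Hoxb7 +0.33 kb (6.60 and 4.48) were each found in E14.5 replicate 1 and E16 replicate 1 of Sox2-EGFP+, and Hoxb6 +2.21 kb (6.89 and 6.69) in E14.5 replicate 1 and E16 replicate 2. Hoxb8 -2.93 kb, with its CTCF match, had 9.51, 4.78 and 4.81 in 3 Sox2-EGFP+ samples. Hoxb13, the gene of the tail and prostate at the 5′ end, had no promoter peak, and the region 9.28 kb downstream of its start stood among the lowest peaks of 2 lists (3.54 and 3.12).

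In Hoxc the Sox2-EGFP- samples had peaks only past the 3′ end of the cluster, and E14.5 Sox2-EGFP+ replicate 2 had no Hoxc peak. Past the 3′ end lay Hoxc4 +51.64 kb, in intergenic DNA, with Smug1 as the next nearest gene. Its peaks were 12.5 in E14.5 Sox2-EGFP+ replicate 1 and 8.13 and 7.99 in the E16 Sox2-EGFP+ samples. The Sox2-EGFP- samples had 2.60, 4.94 and 4.71. No peak was found in E14.5 Sox2-EGFP+ replicate 2 or at E12. The 3 Sox2-EGFP+ values, from the 3 longest lists, lay above all Sox2-EGFP- values. Fold enrichments are scaled within each sample, and this order was not tested.
Hoxc4 +52.98 kb, 1.34 kb further on, had peaks in the 3 Sox2-EGFP- samples (3.85, 4.17 and 3.94) and in none of the 6 Sox2-EGFP+ lists. Hoxc4 is a gene of the neck vertebrae, and its own promoter had no peak.
Hoxc13, which directs hair and nail growth, sits at the 5′ end of the cluster, and it had a region 0.25 kb into the gene in E12 replicate 1 (4.54), E14.5 replicate 1 (4.42) and E16 replicate 1 (4.14) of Sox2-EGFP+. Only the E14.5 peak reached into its promoter, which it shares with Gm17649. Hoxc8 -3.01 kb, with its CTCF match, had 9.33 and 5 in 2 Sox2-EGFP+ samples (E14.5 replicate 1 and E16 replicate 2). Its mean rank over these 2 samples (49.8%) was the best of the Hoxc regions, before Hoxc4 +51.64 kb over 6 samples (50.7%). In the same 2 samples, however, it stood at 44.8% and 54.8%, lower than Hoxc4 +51.64 kb at 17.78% and 22.65%.

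In Hoxa the Sox2-EGFP- peaks lay at Hoxa7 and Hoxa13. Hoxa13, needed like Hoxd13 for digits and the urogenital tract, had a promoter peak in Sox2-EGFP- samples alone, at 3.15 at E14.5 and 3.12 in E16 replicate 2. These peaks stood 93.9% and 99.5% of the way down their lists, and E16 Sox2-EGFP- replicate 1 had none. Another region 0.55 kb into the gene had peaks in 3 of 3 Sox2-EGFP- samples (2.97, 3.57 and 3.79) and in both E16 Sox2-EGFP+ samples (4.47 and 3.57), so the gene as a whole was not restricted to Sox2-EGFP- cells.
Hoxa7, a gene of the upper trunk, had a promoter peak of 7.28 in E14.5 replicate 1 and 4.35 in E16 replicate 2 of Sox2-EGFP+ and of 4.65 and 4.53 in the E16 Sox2-EGFP- samples. Hoxa3, needed for the third pharyngeal arch and the thymus, had a promoter peak in 2 Sox2-EGFP+ samples (3.98 and 3.69).
A stronger region, Hoxa3 +1.33 kb (8.33, 5.39 and 6.45 in Sox2-EGFP+), belonged to a far upstream start of the same gene and lay 3015 bp from a start of Hoxa6. Hoxa4, a gene of the neck vertebrae, had a promoter peak of 3.35, 5.29 and 5.86 in E14.5 replicate 1 and the E16 replicates of Sox2-EGFP+. Hoxa10, of the lumbar trunk and uterus, had a peak 0.29 kb into the gene in the same 3 samples (8.37, 4.41 and 5.11). Hoxa2, which sets the identity of the second pharyngeal arch and is the listed gene at the 3′ end of Hoxa, had no peak in any list.

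Promoter peaks were then counted gene by gene. When the promoter was taken from 1000 bp before a start to 100 bp after it, 11 of 38 Hox genes (28.9%) had a promoter peak in any sample, against 64.2% of 22225 protein-coding genes. Both cell types had a promoter peak at 4 Hox genes (Hoxa7, Hoxd1, Hoxd8 and Hoxd13; 10.5% against 56.3%), Sox2-EGFP+ samples alone at 6 (Hoxa3, Hoxa4, Hoxb9, Hoxc13, Hoxd9 and Hoxd12; 15.8% against 7.57%), Sox2-EGFP- samples alone at Hoxa13 (2.63% against 0.328%), and all 9 samples at 0 (against 20.5%). No set test was run on this difference, as the genes of a cluster are neighbours and not independent. The promoter peaks of the 6 genes with Sox2-EGFP+ peaks alone were all in the 3 longest lists, which are all Sox2-EGFP+.
In single samples, 0 and 1 Hox genes had a promoter peak at E12, 9 and 2 at E14.5 and 5 and 8 at E16 in Sox2-EGFP+, and 3 at E14.5 and 4 and 2 at E16 in Sox2-EGFP-. The Hox share lay between 0% and 23.7%, below the share of all genes in the same sample (23.8% to 63.8%) in 9 of 9 samples.

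CpG-rich promoters, which are accessible in most tissues, made up 63.2% of Hox promoters (24 of 38 genes) and 48.3% of all. Among CpG-rich genes, 10 of 24 Hox genes (41.7%) had a promoter peak in any sample, against 97.7% of 10745 genes, so the difference was larger in this class. The E14.5 Sox2-EGFP+ replicate 1 list, with 97.6% of all CpG-rich genes, had 33.3% of the CpG-rich Hox genes, and E16 Sox2-EGFP- replicate 1 had 16.7% against 92.7%. With 1000 bp to both sides of a start, 17 of 38 Hox genes (44.7%) had a peak against 65.7% of all genes, and 14 of 24 CpG-rich Hox genes (58.3%) against 98.2%. The 6 genes that this wider window added were Hoxa10, Hoxb7, Hoxc5, Hoxd3, Hoxd10 and Hoxd11, whose peaks lay within the start of the gene.

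**Figure D3:**
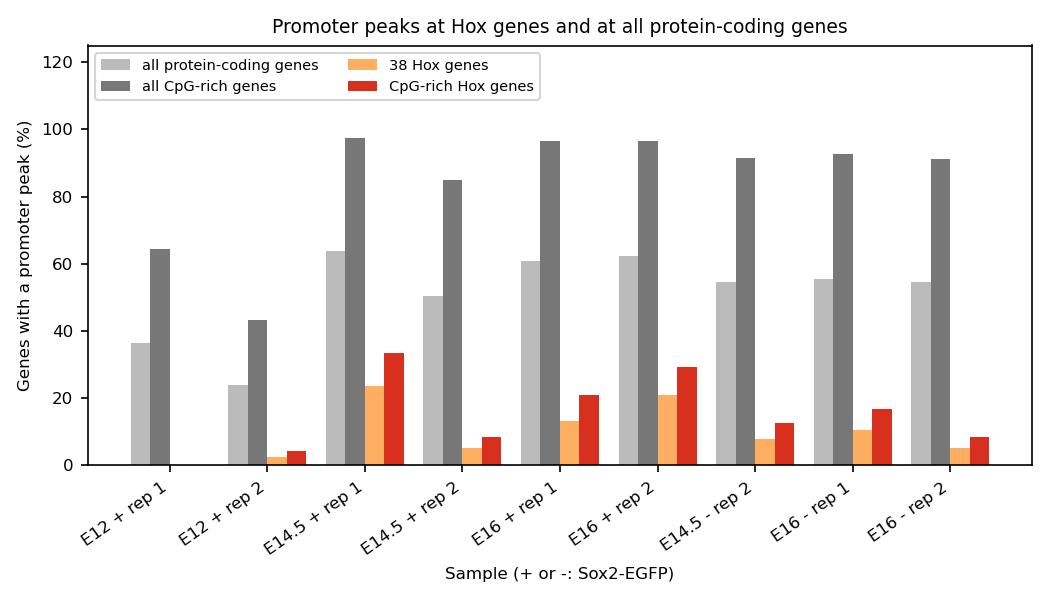
Bars give the percentage of genes with a promoter peak in each sample, for Hox genes and for all protein-coding genes, each over all genes and over CpG-rich genes. In each of the 9 samples the Hox bars are lower than the bars of all genes, with at most 33.3% of CpG-rich Hox genes against at least 43.3% of all CpG-rich genes.

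By position along the axis, 3 of 11 genes of paralog groups 1 to 4 had a promoter peak, 2 of 11 genes of groups 5 to 8 and 6 of 16 genes of groups 9 to 13. With the window of 1000 bp to both sides the counts were 4 of 11, 4 of 11 and 9 of 16. Promoter peaks were thus not confined to the head-level genes in either window. By cluster, 5 of 9 Hoxd genes, 4 of 10 Hoxa genes, 1 of 10 Hoxb genes (Hoxb9) and 1 of 9 Hoxc genes (Hoxc13) had a promoter peak. Hoxd1 and Hoxd13 at both ends of Hoxd had a promoter peak, as did Hoxa13 and Hoxc13 at 5′ ends, while Hoxa2, Hoxb1, Hoxc4 and Hoxb13 had none.

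**Figure D4:**
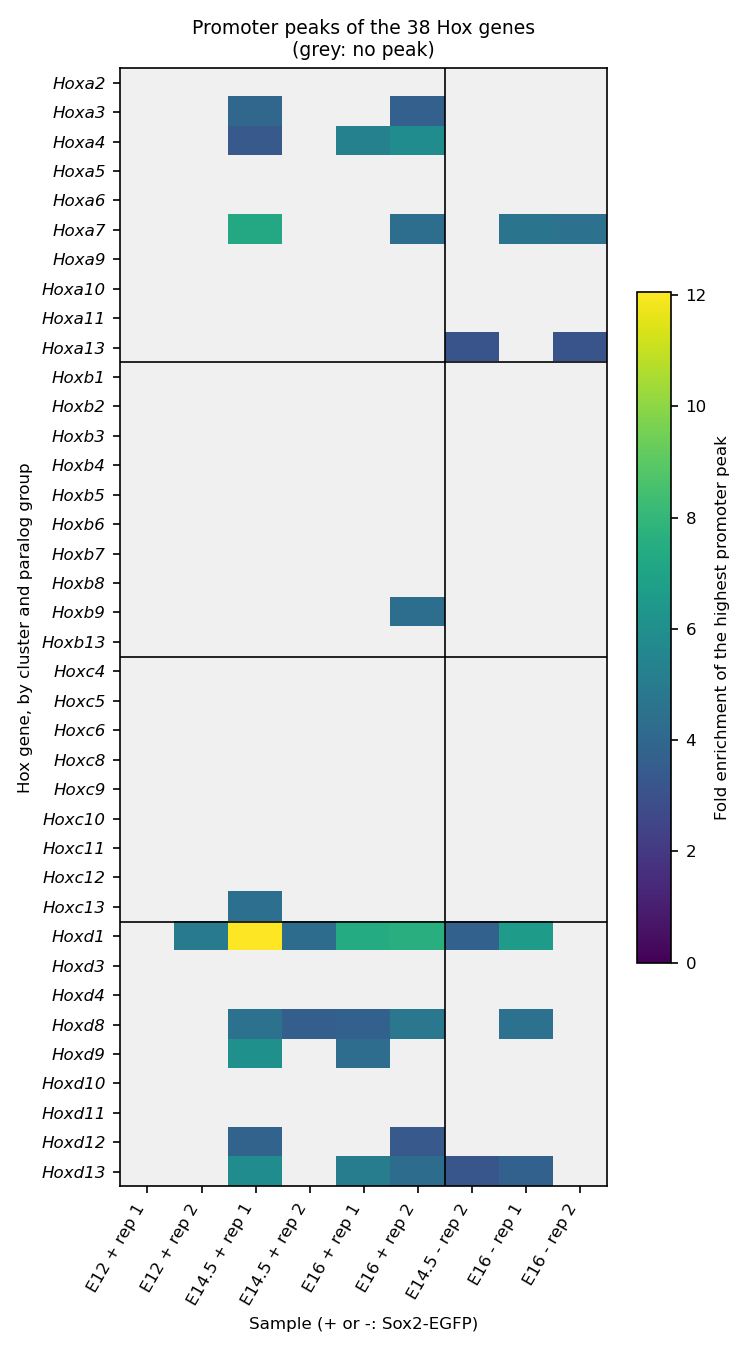
Fold enrichment of the highest promoter peak (colour scale, from 0) for each of the 38 Hox genes (vertical axis, by cluster and paralog group) in each sample (horizontal axis, Sox2-EGFP+ left and Sox2-EGFP- right of the line), with grey for no peak. Most cells are grey, Hoxd1 has a coloured cell in 7 of 9 samples and Hoxa13 is coloured in Sox2-EGFP- samples alone.

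At E12, 3 Hox regions had a peak, and each had 1 in a single E12 replicate. Hoxb1 +31.22 kb and Hoxc13 +0.25 kb were in replicate 1 and Hoxd1 -0.06 kb in replicate 2, and all 3 also had Sox2-EGFP+ peaks at later stages. The E12 lists are the shortest of the 9. The E14.5 Sox2-EGFP+ replicates, the pair with the most unequal lists, shared 6 regions, which were all 6 of replicate 2 and 17.1% of the 35 of replicate 1.

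Markers of some cells moved with the cell types. Peaks nearest to 9 genes of the periotic mesenchyme, the tissue around the duct, numbered between 1.09 and 1.29 per 1000 list peaks in Sox2-EGFP- and between 0.264 and 0.611 in Sox2-EGFP+ samples. In promoters, 6 of these 9 genes had peaks of both cell types, Prrx1 of Sox2-EGFP- and Tbx15 of Sox2-EGFP+ samples alone, and Col1a1 had none. The epithelial genes had between 0.501 and 0.828 peaks per 1000 in Sox2-EGFP+ and between 0.293 and 0.300 in Sox2-EGFP- samples. The same held for prosensory genes, with between 0.987 and 1.58 in Sox2-EGFP+ and between 0.753 and 0.773 in Sox2-EGFP- samples. In promoters, however, 10 of 10 prosensory genes had peaks of both cell types. For other lists the groups overlapped, with Sox2-EGFP- against Sox2-EGFP+ ranges of 0.293 to 0.377 against 0.145 to 0.396 for endothelium, 0.209 to 0.343 against 0.217 to 0.396 for neurons and 0.126 to 0.168 against 0.132 to 0.348 for glia. They were 0.126 to 0.172 against 0 to 0.395 for melanocytes and 0.209 to 0.335 against 0.0724 to 0.471 for the cochlear roof. Of 6 macrophage genes with an annotated start, 0 had a promoter peak. The part of these cells in the Hox peaks of Sox2-EGFP- samples was not tested.

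Genes whose products act with or on Hox genes were examined as a list. Of 28 such genes with an annotated start, 17 (60.7%, against 56.3% of all genes) had promoter peaks of both cell types, 5 (17.9% against 7.57%) of Sox2-EGFP+ samples alone and 6 had none. Those with both included the Polycomb genes Ezh2, Suz12, Eed and Cbx2, the hindbrain regulator Egr2 that acts on Hox genes, and the retinoic acid receptors Rara, Rarb and Rarg. The 5 with Sox2-EGFP+ peaks alone were the cofactor genes Pbx2 (3.09, 3.85 and 3.15), Meis1 (5.76, 5.27 and 6.11) and Meis2 (12.3, 4.09, 4.12 and 6.64) and the retinoic acid-degrading enzymes Cyp26a1 (4.78, 5.36 and 3.38) and Cyp26b1 (4.02, 3.04 and 3.64), all at E14.5 and E16. Of these, Pbx2, Meis1, Cyp26a1 and Cyp26b1 had peaks only in the 3 longest lists. The 6 without a peak were Cdx1, Cdx2 and Cdx4, which switch on trunk Hox genes, Evx1 and Evx2, the neighbours of Hoxa13 and Hoxd13, and Cyp26c1.

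The sequences shown above were searched for in 300 bases around the summit of each region, on both strands. Either form of the CTCF sequence was found in 5 of 39 Hox regions (12.8%, against 14.0% of all regions): those of Hoxd3, Hoxb8 and Hoxc8 shown above and the core alone at Hoxa7 +0.07 kb and Hoxa10 +0.29 kb. TGATNNAT was found in 3 (7.69% against 6.72%), CATTGTT in 2 (5.13% against 5.85%) and TGACAG in 2 (5.13% against 20.2%). The retinoic acid response element, taken as a pair of half-sites of 4 forms (AGGTCA among them) with 5 bases between them, was found in 0 Hox regions and 0.104% of all. A Hox region had a median GC content of 63.3% against 53.3% for all regions and a median ratio of observed to expected CpG of 0.741 against 0.309. Summits lay within 1 kb of a start in 46.2% of the Hox regions and 26.0% of all regions. Beyond 1 kb, the median CpG ratio of 21 Hox regions was 0.622 against 0.242.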

How the data were processed

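Peak lists of 9 ATAC-seq samples were analysed. Per the labels, the authors used Trim Galore, Bowtie2, Picard, SAMtools, MACS2 and bedtools on build mm9 (versions are not given in the sources used here), and per the methods of the study only peaks with an overlapping partner in a further sample of that cell type were retained. The deposited fold enrichment is the ratio of summit pileup to local background that the authors obtained with MACS2 in each sample. Significance as −log10 p and −log10 q was likewise computed by the authors sample by sample, without pooling. The deposited score was not used. The lists hold no read counts, so depth cannot be read from them and no counting interval is given.

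Starts came from GENCODE vM1 (51720 protein-coding transcripts, 22225 gene names). On chromosomes 1 to 19, X and Y (344 peaks lay elsewhere), peaks less than 100 bp apart were merged into regions, and an overlap of at least 1 bp counted as shared. Promoters covered 1000 bp before and 100 bp after a TSS and were CpG-rich where the 500 bp to both sides had at least 50% GC and an observed to expected CpG ratio of at least 0.6. Groups followed the titles. Samples were compared by two-sided exact permutation over samples with Benjamini-Hochberg adjustment over 10 measures of cell type. The litters are the replicates. Python 3.11.15, NumPy 2.4.6, pandas 2.3.3, matplotlib 3.10.9, pysam 0.24.0, bedtools 2.31.1 and samtools 1.23.1 were used, and the programs were tested on simulated data.

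The Hox genes, the lists of cofactors and markers and the tests were chosen with earlier results of these data known. Named were the genes at the cluster ends, genes with a promoter peak in 1 cell type alone or none, regions of 1 cell type with a peak in all 3 Sox2-EGFP- or at least 4 Sox2-EGFP+ samples, and per cluster the region of best mean rank and the longest stretch without a peak. Other regions and genes were named after their values were seen. The lists of 22500 peaks, the promoter counts under other windows and left-out samples, the CpG split, the CTCF consensus and the region counts by cell type tag were added after seeing the data. Authors' read-level comparisons were not used here. Results for some of the genes and regions are not reported here.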

Additional observations from a re-analysis of the deposited data

Results flagged for a closer look

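In 4 measures a single Sox2-EGFP+ sample stood apart from the other 5 by Dixon's test at its 95% critical value. Chance alone gives this in about 1 of 20 groups of continuous values, and more than these 4 measures were screened. The median fold enrichment of the Hox peaks was 6.585 in E14.5 replicate 1, above the other Sox2-EGFP+ samples by 0.663 of the range. Among the 7500 highest peaks, E12 replicate 2 alone had a Hox peak, at Hoxd1, which gave a share of 0.01333%, a count of 1 gene with a promoter peak and a coverage of 0.0433% of all 4 spans, where the other 5 had 0. These last 3 values are 1 peak counted by 3 measures. As the other 5 samples had 0, any value above 0 would have passed, so Dixon's test says nothing on these 3 measures.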

How the results depend on the processing

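The 10 comparisons of cell type over the 7500 highest peaks rest on the 1 Hoxd1 peak of E12 replicate 2, so they carry almost no information on these clusters. In the 5000 or 2000 highest peaks, in E14.5 and E16 samples alone, in E16 samples alone and, for the share, with starts of all transcripts, each difference that this peak had made was 0. Leaving out each sample in turn gave 0 (without E12 replicate 2) to 0.00267 points for the share, 0 to 0.2 for genes with a promoter peak and for those of groups 1 to 4, 0 to 0.0434 points for Hoxd coverage and 0 to 0.00866 points for all 4 spans. For E12 against later stages it gave 0 to 0.0133 points and 0 to 1 gene. With the replicate number as a block (3 pairs that share a stage and a number in the labels), every difference over the 7500 highest peaks was 0, and the values left no spread from which to check the pairing. With whole lists, Sox2-EGFP+ minus Sox2-EGFP- was -0.00386 points for the share, 1.17 genes with a promoter peak in all, 1 and 0.167 genes for groups 1 to 4 and 9 to 13, and 0.281, 0.718, 0.568, 1.09 and 0.667 points of coverage for Hoxa, Hoxb, Hoxc, Hoxd and all 4 spans, while E12 minus later stages was -0.0368 points and -5.5 genes, and no exact permutation p was under 0.05. Ranking by fold enrichment gave -0.00222 points for the share, 0.0471 for Hoxb, -0.208 for Hoxd and -0.0247 for all spans, and 0 for the share at E12 against later stages. In the 22500 highest peaks of 7 lists the differences were -0.00926 points for the share, -0.833 genes with a promoter peak, -0.75 and -0.417 genes for groups 5 to 8 and 9 to 13, and -0.246 and 0.128 points for Hoxa and Hoxb. With the block these were -0.00741, -0.667, -0.667, -0.333, -0.222 and 0.102 (smallest exact permutation p = 0.25, the smallest that 3 pairs allow). The cause of the changes of sign was not tested.

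Of the 27 Hox regions with Sox2-EGFP+ peaks alone, 1 was left in the 7500 highest peaks, and the count was 16 with starts of all transcripts and 10 by the cell type tag. The 3 with Sox2-EGFP- peaks alone became 0 in the 7500 highest peaks, 1 within 20 kb of a start and 0 by the tag. Leaving out each sample gave 27 to 29 and 3 to 4 such regions. The shares over all regions were not counted under these settings. The 11 Hox genes with a promoter peak became 17 with 1000 or 500 bp to both sides and 5 in the 22500 highest peaks, and 10 or 11 without any 1 sample.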
